A study of Homo sapiens with 11 samples.

Results

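RNA sequencing was used to measure how HEK293T cells, a widely used human line of embryonic kidney origin, responded to the compound AA132 at 10 µM over 6 h. It was read from 6 libraries, 3 of AA132 at 10 µM and 3 of vehicle, out of 33 libraries in 11 conditions. All cells carried the WT genotype, grew in 10 cm plates and were treated for 6 h. The vehicle was 0.1% DMSO. The other conditions used here for comparison were AA132 at 6 µM and 15 µM, a second compound, AA147, at 10 µM, and thapsigargin (Tg) at 500 nM, an inhibitor of the pump that fills the endoplasmic reticulum (ER) with calcium. AA132 and AA147 are code names, and the series title places them among regulators of ER protein homeostasis. The labels list 1 sample for each condition, whereas the table holds 3 numbered columns for each. Whether these are separate cultures is not stated, so p-values measure only a spread between libraries, which may be technical. That spread was estimated over all 33 libraries together. All values come from 1 cell line, and in bulk RNA a change in RNA per cell and a change in the number of cells that carry it cannot be told apart.

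The ER folds secreted and membrane proteins. When unfolded protein accumulates, 3 sensors signal to the nucleus: ATF6, which is cut in the Golgi to free a transcription factor for chaperone genes; IRE1, encoded by ERN1, which splices XBP1 mRNA to make the factor XBP1s; and PERK, encoded by EIF2AK3, which phosphorylates the translation factor eIF2α and so lets ATF4 be translated. ATF4 also serves other eIF2α kinases, a programme known as the integrated stress response (ISR), and drives genes of amino acid supply and DDIT3 (CHOP). Other programmes respond to damage elsewhere in the cell. NRF2 is held by KEAP1, a protein with reactive cysteines, and turns on glutathione, thioredoxin and heme genes, whereas HSF1 turns on the cytosolic heat shock chaperones.

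Levels are given as CPM, the count of a gene scaled to a common library size, and differences as log2 fold changes of AA132 minus vehicle. The value after ± is their standard error (SE). A gene was called when the adjusted p of the edgeR quasi-likelihood test, corrected over all genes by Benjamini-Hochberg, was under 0.05. Positions are those of GENCODE v44 on GRCh38. All 33 libraries entered 1 fit. Library totals ran from 32.3 M to 37.96 M counts. The lowest total was that of AA132 10 µM library 3, and the next lowest was 36.4 M.

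Library 1 of vehicle and library 1 of AA132 10 µM stood apart from libraries 2 and 3 of their conditions. The SD of log2 deviations from the condition mean, over genes averaging at least 10 CPM, was 0.254 in vehicle library 1. This was the largest of all 33 libraries, followed by vehicle library 2 (0.162) and AA132 10 µM library 1 (0.161). In the libraries of AA132 6 µM and Tg it was 0.063 to 0.067. In vehicle library 1, genes with transcripts of up to 2614 bases, the shortest 25%, had a median log2 difference of 0.24 from libraries 2 and 3, and those of 5915 bases or more, the longest 25%, a median of -0.34. AA132 library 1 showed no such slope, with medians of -0.02 and -0.01, but held 26.9 CPM of MALAT1 and 52.4 CPM of NEAT1, both nuclear RNAs, against 13.9 and 14.7 CPM and 21.76 and 23.2 CPM in libraries 2 and 3. These RNAs were chosen after their values were seen, and their part in the results was not tested. Outside the comparison, AA132 1 µM library 1 and AA132 3 µM library 3 also stood apart from their conditions. HMOX1 was at 39.8 CPM in the former and 11.5 and 12.1 CPM in its 2 companions, and at 14.2 CPM in the latter against 49.3 and 43.9 CPM. HSPA5 was at 1660 CPM in the former against 1028 and 1093 CPM, and at 1042 CPM in the latter against 1921 and 1969 CPM. For both genes each library lay nearer to the other's condition than to its own. Whether the 2 columns were exchanged was not tested. Both entered the shared estimate of spread; without them 286 genes were called in place of 250.

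To show what the genes described below carry near their start, promoters were read from RefSeq (GRCh38.p14), from 250 bases before to 50 after the first listed start of each gene. The shown promoters belong to 5 genes of the ER response that rose and to GCLM, an NRF2 target that rose. Capitals mark the motif found by search on both strands: the ER stress response element (ERSE: CCAAT, any 9 bases, then CCACG), its shorter form ERSE-II (ATTGG, any base, then CCACG), the core of the element bound by ATF6 and XBP1s (UPRE core, TGACGTGG), the amino acid response element (CARE, TGATGNAA) and the antioxidant response element (ARE: TGAC, any 3 bases, then GCA). Positions count the first transcribed base as 1 and the base before it as -1.
HSPA5, chr9:125241294-125241593, minus strand, ERSE: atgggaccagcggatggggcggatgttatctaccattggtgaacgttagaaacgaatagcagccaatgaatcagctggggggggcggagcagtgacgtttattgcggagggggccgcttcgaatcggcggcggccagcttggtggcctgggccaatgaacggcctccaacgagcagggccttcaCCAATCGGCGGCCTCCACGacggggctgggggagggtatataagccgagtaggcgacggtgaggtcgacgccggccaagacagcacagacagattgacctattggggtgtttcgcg
HSP90B1, chr12:103930160-103930459, plus strand, ERSE: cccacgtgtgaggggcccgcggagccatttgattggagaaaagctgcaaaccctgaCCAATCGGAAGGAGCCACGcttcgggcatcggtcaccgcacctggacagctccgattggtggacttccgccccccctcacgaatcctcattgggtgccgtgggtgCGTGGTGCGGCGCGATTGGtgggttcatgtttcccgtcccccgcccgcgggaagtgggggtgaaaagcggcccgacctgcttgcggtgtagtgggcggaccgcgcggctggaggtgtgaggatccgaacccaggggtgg
XBP1, chr22:28800520-28800819, minus strand, ERSE: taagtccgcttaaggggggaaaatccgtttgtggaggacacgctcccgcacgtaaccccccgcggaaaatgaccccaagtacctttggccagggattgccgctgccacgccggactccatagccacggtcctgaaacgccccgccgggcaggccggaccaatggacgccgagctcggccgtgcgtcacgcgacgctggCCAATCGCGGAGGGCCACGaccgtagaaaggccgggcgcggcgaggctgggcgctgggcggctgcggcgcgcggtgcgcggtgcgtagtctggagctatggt
HERPUD1, chr16:56931892-56932191, plus strand, CARE and ERSE-II: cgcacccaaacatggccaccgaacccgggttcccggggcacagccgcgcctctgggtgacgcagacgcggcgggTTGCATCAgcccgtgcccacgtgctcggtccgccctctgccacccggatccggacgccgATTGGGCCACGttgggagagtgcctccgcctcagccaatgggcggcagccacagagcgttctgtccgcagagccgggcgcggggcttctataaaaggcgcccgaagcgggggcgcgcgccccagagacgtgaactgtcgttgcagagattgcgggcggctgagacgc
HYOU1, chr11:119057156-119057455, minus strand, UPRE core and ERSE-II: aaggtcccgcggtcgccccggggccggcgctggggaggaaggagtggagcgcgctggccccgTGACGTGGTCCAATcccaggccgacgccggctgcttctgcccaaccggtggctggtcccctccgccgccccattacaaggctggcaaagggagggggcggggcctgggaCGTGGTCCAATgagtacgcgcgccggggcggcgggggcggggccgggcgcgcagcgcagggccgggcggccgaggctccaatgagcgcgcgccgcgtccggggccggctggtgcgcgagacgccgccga
GCLM, chr1:93909381-93909680, minus strand, ARE: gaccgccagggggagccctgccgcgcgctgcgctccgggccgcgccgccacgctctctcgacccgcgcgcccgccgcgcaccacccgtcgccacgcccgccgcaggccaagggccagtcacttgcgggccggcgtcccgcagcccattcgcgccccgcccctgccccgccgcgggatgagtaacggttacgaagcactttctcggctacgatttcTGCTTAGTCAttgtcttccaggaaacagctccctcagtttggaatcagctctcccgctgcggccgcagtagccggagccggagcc

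The ERSE of HSPA5 lies at -66 to -48 and that of XBP1 at -52 to -34, both read in the direction of transcription. HSP90B1 holds a pair, at -194 to -176 and, on the opposite strand, at -89 to -71. HYOU1 holds ERSE-II at -185 to -175 and at -79 to -69, both on the opposite strand, and its UPRE core at -188 to -181 overlaps the first of them. HERPUD1 holds a CARE at -176 to -169, on the opposite strand, and an ERSE-II at -117 to -107, read in the direction of transcription. The ARE of GCLM lies at -35 to -26, on the opposite strand.

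The same search covered the 149 of 184 higher genes that matched a promoter, the 13042 of the 17793 tested genes that did, as background, and all 27305 promoters of the table. An ERSE was in 8 of the 149 promoters (5.37%), in 18 of the tested genes (0.138%) and in 22 of all promoters (0.0806%). The 8 were HSPA5, HSP90B1, CALR, CANX, CRELD2, ERO1B and XBP1, which serve ER folding and its control, and TRIM5, an antiviral restriction factor. ERSE-II was in 3 (2.01%; HERPUD1, HYOU1 and SDF2L1) against 12 of the tested genes (0.092%) and 15 of all (0.0549%). The UPRE core was in 2 (1.34%) against 0.951% of the tested genes and 0.795% of all, and the heat shock element (HSE: GAA, any 2 bases, TTC, any 2 bases, then GAA) in 2 (1.34%; HSPA6 and ABHD3) against 0.353% and 0.487%. The CARE was in 7 (4.7%; ASNS, ATF3, CHAC1, GPX8, HERPUD1, RSL24D1 and SLC3A2) against 1.75% of the tested genes and 3.67% of all. The ARE was in 6 (4.03%) against 2.84% and 3.26%, and the xenobiotic response element (XRE, TNGCGTG) in 8 (5.37%) against 7.07% and 5.51%. These shares are a description without a test. The share of CARE among the higher genes was above that of the tested genes and nearer to that of all promoters, so the reading of it depends on the background. The sites of other named genes, each read 5′ to 3′ on its own strand with the fixed letters in capitals, are as follows.
CALR, ERSE, chr19:12938384-12938402: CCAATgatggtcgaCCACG
CANX, ERSE, chr5:179698778-179698796: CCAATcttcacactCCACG
CRELD2, ERSE, chr22:49918554-49918572: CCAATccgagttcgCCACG
ERO1B, ERSE, chr1:236282183-236282201: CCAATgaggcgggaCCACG
SDF2L1, ERSE-II, chr22:21642114-21642124: ATTGGtCCACG
ASNS, CARE, chr7:97872469-97872476: TGATGaAA
CHAC1, CARE, chr15:40953262-40953269: TGATGcAA
SLC3A2, CARE, chr11:62881736-62881743: TGATGtAA
HSPA6, HSE, chr1:161524466-161524478: GAActTTCgcGAA

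Holding an ERSE did not go with a call in every gene. Of 18 tested genes with one, 10 were not called: ALG12, EIF2A, FICD, FRG2, FRG2B, LOC105373759, LOC105374174, SERP1, TMEM120A and ZNF17. FICD had a log2 fold change of 0.51 with an adjusted p of 0.0636 (edgeR). EIF2A and SERP1 share 1 site (chr3:150546710-150546728), so these entries are not all independent. ALG12 and CRELD2 also share 1 site between them (chr22:49918554-49918572). CRELD2, an ER protein induced by stress, rose by a log2 fold change of 0.59, whereas ALG12, a mannosyltransferase of N-glycan assembly, had 0.27 with an adjusted p of 0.0585 from edgeR.

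AA132 at 10 µM called 250 of 17793 genes tested, 184 higher and 66 lower than vehicle, or 1.03% and 0.371% of genes tested. The median absolute log2 fold change of the called genes was 0.49, and 29 of them changed by more than 2-fold. In 236 of the 250 the libraries of the 2 conditions did not overlap, as was the case for 1828 of all genes tested. AA132 library 1 held the lowest of the 3 AA132 levels in 119 of the 184 higher genes, against 33 for library 2 and 32 for library 3. It held the highest of the 3 in 14 of the 66 lower genes. The count rose to 1160 (644 higher, 516 lower) without library 1 of both conditions, an alternative chosen after seeing the data, and 196 of the 250 were among them. Fitted with these 2 conditions alone, 8 genes were called: HMOX1, HSPA5, HSP90B1, MANF, PDIA4, DDIT3, SLC7A11 and CYP1B1. The remaining calls rest on the spread shared over all conditions. That estimate includes conditions whose libraries lay closer together, so it may understate the spread of these 2.

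**Figure D1:**
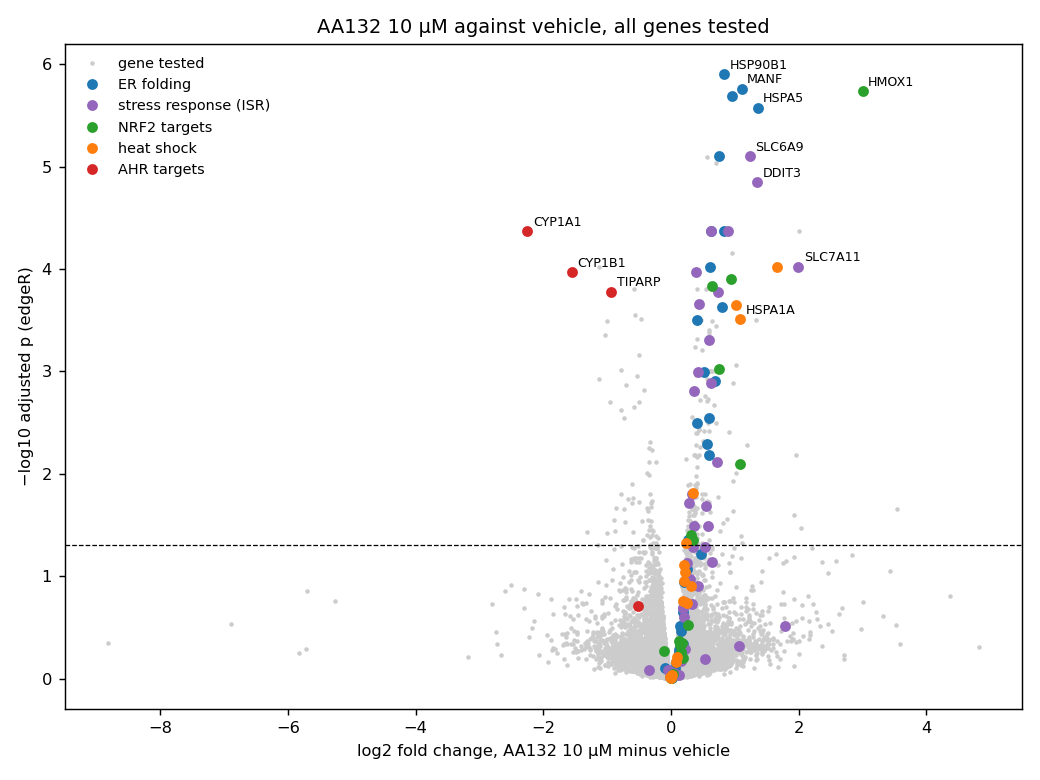
Each point is a gene tested, with its log2 fold change of AA132 10 µM minus vehicle on the x axis and −log10 of its adjusted p from edgeR on the y axis; coloured points are members of the gene lists named in the legend, and the dashed line marks an adjusted p of 0.05. HMOX1 lies farthest to the right of the labelled genes, at 3.00, and CYP1A1 farthest to the left, at -2.25.

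The 3 marker genes of the experiment all rose. HSPA5, the ER chaperone BiP (chr9:125234853-125241382), was at 1025, 973 and 881 CPM in the vehicle libraries and at 1854, 2687 and 2836 CPM in the AA132 libraries. It rose 2.56-fold (log2 fold change 1.36 ± 0.16, adjusted p = 2.65e-06, edgeR). HMOX1, heme oxygenase 1 and a target of NRF2 (chr22:35380361-35394214), was at 16.4, 11.1 and 11.9 CPM under vehicle and 70.7, 126 and 118 CPM under AA132, an 8-fold rise (log2 fold change 3.00 ± 0.34, adjusted p = 1.84e-06, edgeR). Library 1 was the lowest of the AA132 libraries for both genes, yet above every vehicle library. DDIT3, the ISR transcription factor CHOP (chr12:57516588-57521737), went the other way among libraries: it was at 8.40, 8.28 and 6.89 CPM under vehicle and 23.4, 18.4 and 18.3 CPM under AA132, highest in library 1. Its log2 fold change was 1.35 ± 0.18 (SE), with an adjusted p of 1.41e-05 (edgeR).

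**Figure D2:**
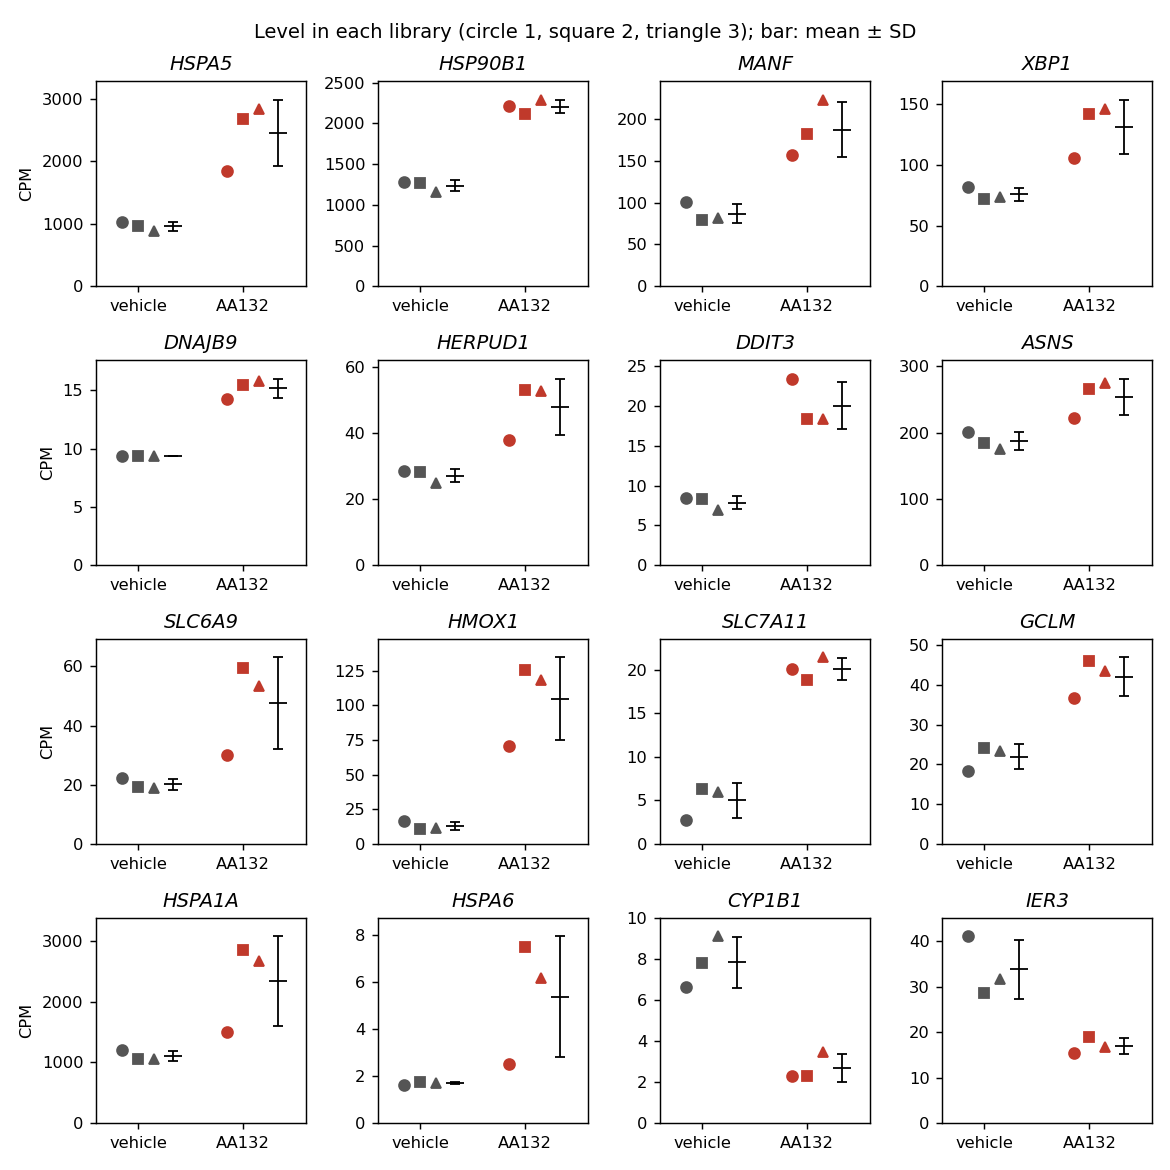
Each panel shows the CPM of a gene in the 3 vehicle libraries (grey) and the 3 AA132 10 µM libraries (red), with circles, squares and triangles for libraries 1, 2 and 3 and the mean ± SD beside them on axes that start at 0. In all 16 panels the libraries of the conditions do not overlap, which adds no support, since the genes shown were picked among those called on the same values. Of all 17793 genes tested, 1828 did not overlap. For HSPA5, HMOX1, SLC6A9, HSPA1A and HSPA6, among others, the circle of AA132 library 1 lies below the square and the triangle.

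Of the 19 lists, which were chosen with results of these data known, ER chaperones had the largest share of calls with all libraries. Of 12 members tested, 10 rose and 0 fell, with a median log2 fold change of 0.62 against 0.01 over all genes tested. With 1 library left out 9 to 11 rose. At 9, without AA132 library 2 or vehicle library 2 or 3, their share was no longer above that of the AHR targets (3 of 4). HSP90B1, the ER form of HSP90 (GRP94), was at 1280.4, 1267 and 1164 CPM under vehicle and 2214, 2120.4 and 2289 CPM under AA132 (log2 fold change 0.84 ± 0.09, adjusted p = 1.25e-06, edgeR). Its AA132 libraries lay close together, without the drop in library 1 seen for HSPA5. MANF, a secreted ER stress protein that binds BiP, was at 101, 78.8 and 81.5 CPM and 157, 182 and 223 CPM, a 2.15-fold rise. The other rises were smaller. HYOU1, the nucleotide exchange factor of BiP (GRP170), had a log2 fold change of 0.75 (adjusted p = 7.93e-06, edgeR) and DNAJC3, a co-chaperone of BiP, one of 0.69 (adjusted p = 0.00125). The lectin chaperones calreticulin (CALR) and calnexin (CANX), which hold glycoproteins, rose by 0.61 and 0.52, and DNAJB11, an ER J-protein that brings clients to BiP, by 0.63. CRELD2 and SDF2L1 rose by 0.59 and 0.56. The libraries of SDF2L1, a partner of ER J-proteins, overlapped, with 66.98, 41.2 and 43.5 CPM under vehicle and 62.6, 82.1 and 79.4 CPM under AA132. Its call was lost without AA132 library 2 or vehicle library 2 or 3, with an adjusted p of up to 0.0563 (edgeR). The members that were not called were SIL1, another exchange factor of BiP (0.12), and DNAJC10, an ER reductase (0.08). The list median per library, as log2(CPM + 0.5) minus the vehicle mean, was 0.50, 0.70 and 0.69 in the AA132 libraries and between -0.09 and 0.10 in the vehicle libraries.

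Enzymes of disulfide formation were called for 4 of 9 members, all higher, with a median log2 fold change of 0.20. PDIA4 (ERp72), a disulfide isomerase, was at 450.2, 442 and 445 CPM under vehicle, within a narrow range, and at 790.0, 925 and 872 CPM under AA132. Its rise was 1.93-fold (log2 fold change 0.95 ± 0.11, adjusted p = 2.06e-06, edgeR). PDIA6, an isomerase that also binds IRE1, rose by 0.41. ERO1B, the oxidase that recharges the isomerases, rose by 0.59, from 17.04, 31.4 and 26.3 CPM to 40.7, 39.7 and 32.4 CPM; without library 1 of both conditions its log2 fold change was 0.32 and its adjusted p 0.0669 (edgeR). PDIA3 (ERp57) rose by 0.27, a call that was lost without AA132 library 2 or 3 or vehicle library 3 (adjusted p up to 0.217, edgeR). P4HB, the main isomerase of the ER (PDI), was not called, at 978, 831 and 829 CPM and 917, 1049 and 1062 CPM (0.20, adjusted p = 0.113), nor was ERO1A (0.06).

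In ER-associated degradation, which returns misfolded protein to the cytosol, 3 of 12 members rose and the median was 0.13. HERPUD1, a membrane protein that assembles the degradation complex, was at 28.3, 28.1 and 24.7 CPM under vehicle and 37.97, 52.9 and 52.7 CPM under AA132 (log2 fold change 0.82 ± 0.11, adjusted p = 4.21e-05, edgeR). DERL3, a derlin of the retrotranslocation channel, rose by 0.79, from 16.02, 11.6 and 13.3 CPM to 20.7, 25.4 and 24.6 CPM. VIMP (SELENOS), a selenoprotein of the same complex, rose by 0.40. The other derlins had log2 fold changes of -0.09 (DERL1) and 0.25 (DERL2), and SYVN1 (HRD1), the ubiquitin ligase of the complex, 0.12. SEL1L, which holds that ligase, was at 29.2, 54.3 and 53.6 CPM and 63.7, 61.97 and 64.98 CPM; its libraries did not overlap, but the adjusted p was 0.061 (edgeR). EDEM1, EDEM2 and EDEM3, mannose-trimming proteins that mark clients for degradation, lay between -0.01 and 0.04, with no call. The list thus held 9 members that were not called.

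Among 9 sensors and activators of the unfolded protein response, XBP1 was the single call, and the list median was 0.14. With 1 library left out the median ran from 0.03 (without vehicle library 1) to 0.29 (without vehicle library 2), and 2 members were called without AA132 library 1 or vehicle library 2. XBP1 mRNA was at 82.1, 71.98 and 73.2 CPM under vehicle and 105, 142 and 146 CPM under AA132, a 1.73-fold rise (log2 fold change 0.79 ± 0.10, adjusted p = 7.93e-06, edgeR). The gene count holds both the unspliced and the spliced form and does not show how much was spliced. EIF2AK3 (PERK) had 0.24 (adjusted p = 0.0917), ATF6 0.13 and ERN1 (IRE1) 0.30 (adjusted p = 0.475, edgeR), none of them called. In the list of secretory pathway genes that XBP1s is known to drive, 1 of 13 members rose, with a median of 0.16; 3 rose without AA132 library 1 and 2 without vehicle library 1. That member was DNAJB9 (ERdj4), a J-protein that restrains IRE1. It was nearly level under vehicle, at 9.34, 9.34 and 9.38 CPM, and at 14.2, 15.5 and 15.8 CPM under AA132 (log2 fold change 0.70 ± 0.09, adjusted p = 9.29e-06, edgeR). SEC61A1, the pore of the translocon, had 0.20, and SRPRB and SSR3, which receive and assist nascent chains there, 0.26 and 0.25; their adjusted p-values were 0.127, 0.0781 and 0.088 (edgeR). Of the 13, 12 had a log2 fold change above 0.

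**Figure D3:**
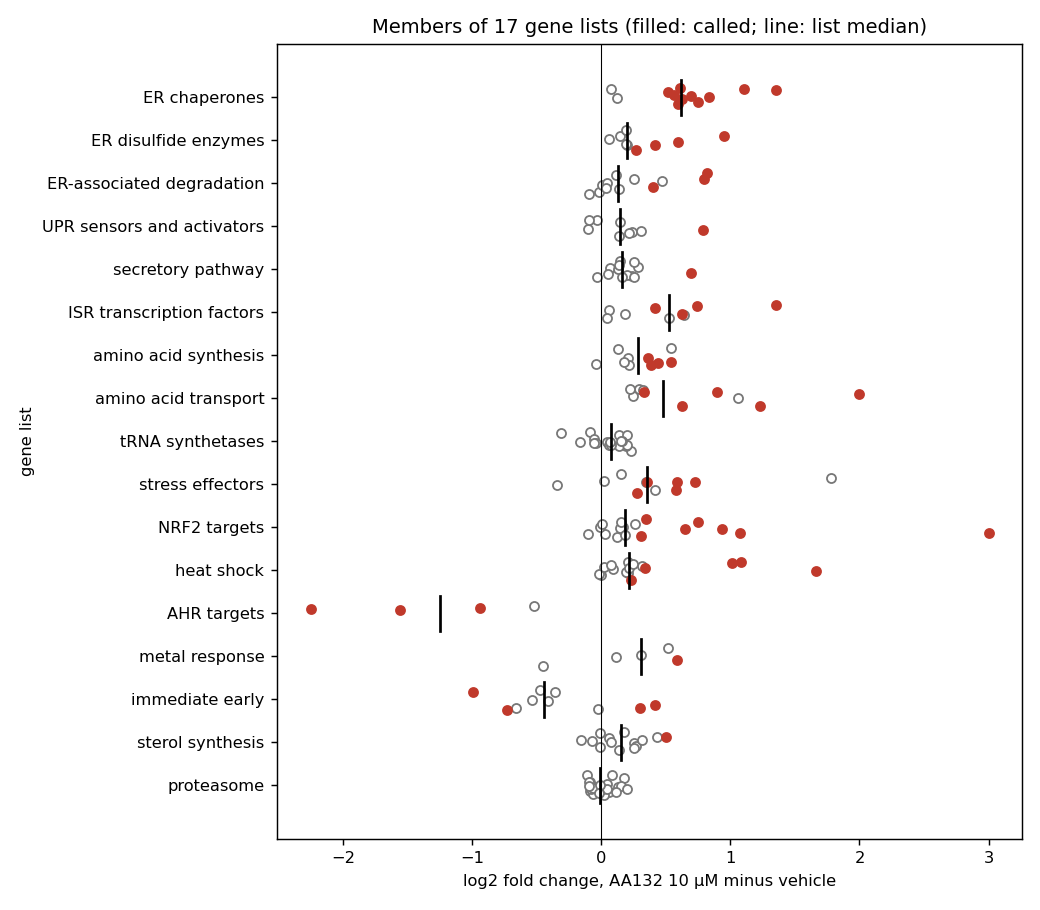
Rows are 17 gene lists and points their tested members, with the log2 fold change of AA132 10 µM minus vehicle on the x axis; filled points were called (adjusted p under 0.05, edgeR), open points were not, and the black line is the list median. The ER chaperones lie to the right with a median of 0.62, the AHR targets to the left with a median of -1.25, and the proteasome genes around 0.

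The ISR transcription factors were called in part. All 9 tested had a log2 fold change above 0, with a list median of 0.53, and 4 were called higher (DDIT3, ATF3, CEBPG and TRIB3). With 1 library left out 4 to 6 were called, the most without vehicle library 1. CEBPG, a dimer partner of ATF4, was at 27.6, 38.6 and 43.7 CPM under vehicle and 51.6, 62.6 and 69.7 CPM under AA132 (log2 fold change 0.74 ± 0.12, adjusted p = 0.000166, edgeR). ATF3, an early stress factor, rose by 0.42, from 133, 122 and 128 CPM to 144, 182 and 186 CPM. TRIB3, a pseudokinase that binds ATF4 and CHOP, was called with overlapping libraries (33.3, 21.3 and 26.2 CPM against 30.4, 47.7 and 46.7 CPM, 0.63). ATF4 itself, which is controlled largely at translation, was at 528, 437 and 433 CPM and 505, 542 and 544 CPM and was not called (0.19, adjusted p = 0.206, edgeR). CEBPB, another partner of these factors, had 0.64, with 6.07, 3.99 and 5.25 CPM and 6.30, 10.5 and 7.05 CPM (adjusted p = 0.0724, edgeR). PPP1R15A (GADD34), which returns eIF2α to its active state, had 0.04 and ATF5 0.06.

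Amino acid transporters were called for 5 of 10 members, all higher, with a median of 0.48 that was 0.31 without AA132 library 2. SLC7A11, the cystine importer xCT that feeds glutathione synthesis and is known as a target of both ATF4 and NRF2, was at 2.74, 6.35 and 6.02 CPM under vehicle and 20.03, 18.9 and 21.4 CPM under AA132. The lowest vehicle value was that of library 1, and the AA132 libraries lay close together. Its rise was 3.98-fold (log2 fold change 1.99 ± 0.29, adjusted p = 9.52e-05, edgeR). SLC6A9, the glycine transporter GlyT1, was at 22.3, 19.4 and 18.96 CPM and 29.9, 59.3 and 53.3 CPM, with AA132 library 1 nearer to vehicle than to libraries 2 and 3 (log2 fold change 1.23 ± 0.15, adjusted p = 7.93e-06, edgeR). SLC3A2 and SLC7A5, the heavy and the light chain of the large neutral amino acid transporter, rose by 0.90 and 0.63. SLC38A2, a glutamine carrier, rose by 0.33; this call was lost without AA132 library 1 or vehicle library 1 (adjusted p up to 0.0681, edgeR). SLC7A1, the arginine carrier, was not called, at 46.6, 75.1 and 73.2 CPM and 70.6, 89.4 and 84.5 CPM (0.33, adjusted p = 0.186).

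In amino acid synthesis, 4 of 10 members rose and the median was 0.29. Without AA132 library 1, 7 rose. ASNS, asparagine synthetase, was at 201, 185 and 175 CPM under vehicle and 223, 265 and 274 CPM under AA132 (log2 fold change 0.44 ± 0.07, adjusted p = 0.000219, edgeR). PSAT1, of serine synthesis, and MTHFD2, of the mitochondrial folate cycle, rose by 0.36 and 0.39. PYCR1, which makes proline, rose by 0.54, a call lost without library 2 or 3 of either condition (adjusted p up to 0.115, edgeR). PHGDH, the first enzyme of serine synthesis, was not called: it was at 292, 222 and 226 CPM and 240.2, 321 and 296 CPM (0.21, adjusted p = 0.249). CTH, which makes cysteine from cystathionine, had 0.54, with 4.24, 6.68 and 6.55 CPM and 7.24, 9.31 and 8.84 CPM (adjusted p = 0.052). Vehicle library 1 held the highest vehicle level of PHGDH and AA132 library 1 the lowest of AA132, and without both the adjusted p was 1.13e-05 (edgeR). That fit was chosen after seeing the data and leaves out the PHGDH values that most oppose a rise, so it adds no support for one.

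None of 18 cytosolic tRNA synthetases, the enzymes that load amino acids on tRNA, was called, and the median was 0.07. AARS, which loads alanine, was at 335, 317 and 294 CPM and 322, 386 and 399 CPM (0.23, adjusted p = 0.059, edgeR), and VARS, which loads valine, had -0.32 (adjusted p = 0.0527). Without AA132 library 1, 6 of the 18 were called higher, without vehicle library 1, 3, and without both, 9, with a median of 0.17. Without AA132 library 3 the median was -0.01. Without AA132 library 2 or 3, 1 member was called lower, and without vehicle library 2, 1 was called higher and 1 lower. The per-library medians were -0.14, 0.11 and 0.21 in AA132 libraries 1, 2 and 3. A CARE was in 5 of the 10 synthetase promoters that matched the table, those of AARS, CARS, IARS, NARS and TARS.

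Stress effectors downstream of ATF4 and CHOP were called for 5 of 11 members, with a median of 0.36. Without AA132 library 2 the count was 1, and without vehicle library 2 it was 2. STC2, a secreted glycoprotein, was at 17.4, 16.6 and 17.6 CPM under vehicle and 21.4, 29.2 and 27.03 CPM under AA132 (log2 fold change 0.59 ± 0.10, adjusted p = 0.00049, edgeR). CHAC1, which degrades glutathione, was at 6.43, 4.51 and 5.30 CPM and 6.22, 10.2 and 10.4 CPM, with AA132 library 1 inside the vehicle range (0.72, adjusted p = 0.0076). SESN2, a leucine sensor that restrains mTORC1, rose by 0.36, and BBC3 (PUMA), a death-promoting BH3 protein, by 0.58. TNFRSF10B, the death receptor DR5, rose by 0.28. Of these 5, STC2 was called in every fit that left out 1 library. CHAC1 was not called without AA132 library 2 or 3 or vehicle library 2 (adjusted p up to 0.0858, edgeR), SESN2 without library 2 or 3 of either condition (up to 0.185), BBC3 without library 2 of either (up to 0.153) and TNFRSF10B without AA132 library 2 (0.0767). GDF15, a secreted stress hormone, was near the limit of detection, at 0.166, 0 and 0 CPM under vehicle and 0.366, 0.054 and 0.160 CPM under AA132, and was not called. PMAIP1 (NOXA), another BH3 gene, was highest in AA132 library 1, with 49.6, 63.5 and 72.4 CPM under vehicle and 106, 75.1 and 66.5 CPM under AA132, and was not called (0.42, adjusted p = 0.126). VEGFA, a growth factor of vessels, had 0.34 with libraries that did not overlap and an adjusted p of 0.0522 (edgeR).

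**Figure D4:**
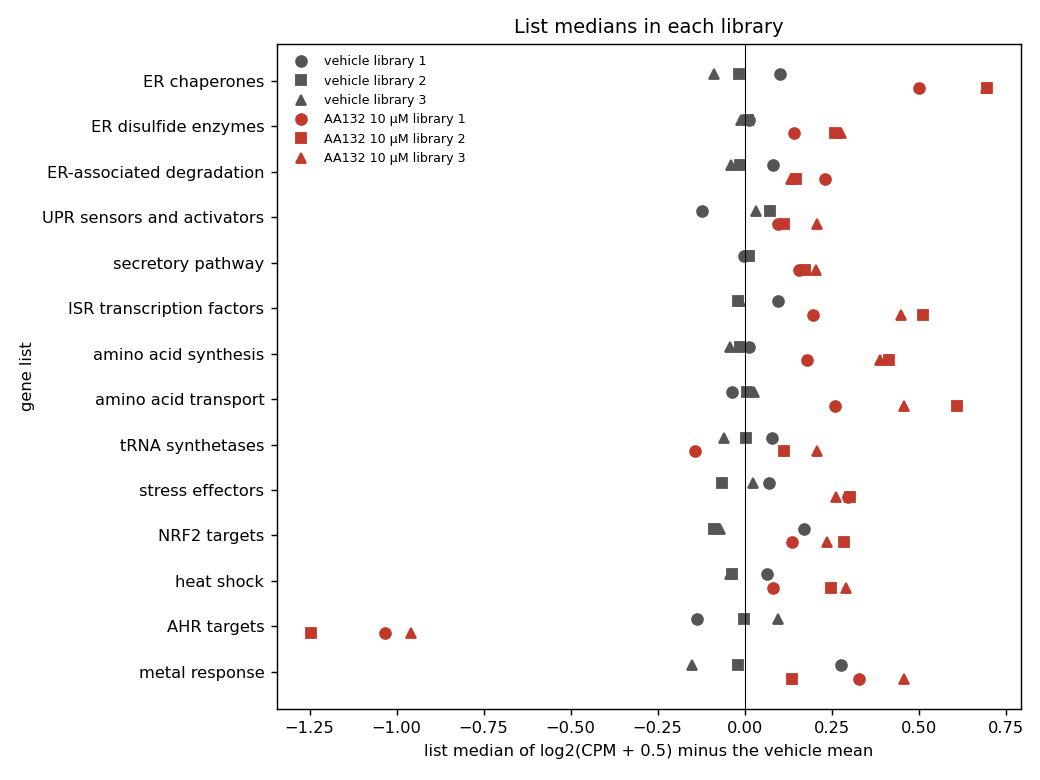
Rows are 14 gene lists and points the median over the list's tested members of log2(CPM + 0.5) minus the mean of the vehicle libraries, for each vehicle library (grey) and each AA132 10 µM library (red). For the tRNA synthetases AA132 library 1 lies at -0.14 and libraries 2 and 3 at 0.11 and 0.21, and for the ER chaperones all 3 lie at 0.50 or above.

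NRF2 targets were called for 7 of 17 members, all higher, with a median of 0.18. Without AA132 library 2 the count was 4, and without vehicle library 1 the median was 0.30. In single libraries the list median was 0.17 in vehicle library 1, above the 0.14 of AA132 library 1. The enzymes of glutathione and thioredoxin supply that rose were GCLM and GCLC, the 2 subunits of glutamate-cysteine ligase, TXNRD1, thioredoxin reductase, and SRXN1, sulfiredoxin. GCLM was at 18.3, 24.2 and 23.3 CPM under vehicle and 36.6, 46.1 and 43.4 CPM under AA132 (log2 fold change 0.94 ± 0.14, adjusted p = 0.000125, edgeR), and TXNRD1 at 212, 273 and 260.5 CPM and 307, 403 and 458 CPM (0.65). Neither overlapped between conditions. SRXN1 rose by 0.75, with 12.3, 21.8 and 17.1 CPM in the AA132 libraries against 10.7, 9.42 and 10.3 CPM. GCLC rose by 0.31 and FTL, a ferritin chain that stores iron, by 0.34. The call of GCLC was lost without AA132 library 2 or 3 or vehicle library 1 (adjusted p up to 0.194, edgeR), and that of FTL without library 2 or 3 of either condition (up to 0.208). OSGIN1, a growth inhibitor known as an NRF2 target, rose by 1.08 from a low level (1.88, 1.71 and 1.59 CPM); without AA132 library 2 its adjusted p was 0.0969 (edgeR). NQO1, the quinone reductase often used as a marker of NRF2, was at 6.46, 5.18 and 4.14 CPM and 5.52, 6.18 and 6.19 CPM and was not called (log2 fold change 0.18 ± 0.14, adjusted p = 0.631, edgeR). PGD, TALDO1 and TKT, enzymes of the pentose phosphate pathway, had log2 fold changes of -0.10, -0.01 and 0.00, with no call.

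The cytosolic heat shock list was called for 5 of 16 members, all higher, with a median of 0.21. The count was 9 without AA132 library 1, 10 without library 1 of both conditions and 3 without vehicle library 3. HSPA1A and HSPA1B, the inducible HSP70 genes, are near-identical copies, so the split of reads between them is uncertain. HSPA1A was at 1197, 1053 and 1060.3 CPM under vehicle and 1493, 2852 and 2673 CPM under AA132 (log2 fold change 1.08 ± 0.18, adjusted p = 0.000311, edgeR), and HSPA1B rose by 1.01. HSPA6, an HSP70 that is nearly silent without stress, was at 1.64, 1.74 and 1.70 CPM and 2.51, 7.48 and 6.16 CPM, a 3.17-fold rise (log2 fold change 1.67 ± 0.25, adjusted p = 9.52e-05, edgeR). For all 3 genes AA132 library 1 lay nearer to the vehicle libraries than libraries 2 and 3 did. The other 2 calls were smaller. HSP90AA1, inducible cytosolic HSP90, rose by 0.34, lost without AA132 library 1 or vehicle library 3 (adjusted p up to 0.0811, edgeR). HSPH1 (HSP105), a nucleotide exchange factor of HSP70, rose by 0.23 with overlapping libraries and was lost without AA132 library 2 or 3 or vehicle library 1 or 3 (up to 0.241). BAG3, a co-chaperone of HSP70, was at 71.05, 62.3 and 63.9 CPM and 60.4, 91.7 and 93.2 CPM. It was not called with all libraries (0.31, adjusted p = 0.126, edgeR). Without library 1 of both conditions its adjusted p was 3.04e-05 (edgeR). Those were its highest vehicle and lowest AA132 library, left out after seeing the data, so that p adds no support for a rise. DNAJB1, the HSP40 partner of HSP70, had 0.21 (adjusted p = 0.111). HSP90AB1, the constitutive HSP90, and HSPD1, the mitochondrial chaperonin, had -0.002 and 0.019.

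Targets of the aryl hydrocarbon receptor (AHR), a ligand-activated factor of xenobiotic metabolism, were lower. Of 4 tested, 3 fell and the median was -1.25. CYP1A1, a cytochrome P450 of that pathway, was at 2.74, 2.23 and 2.12 CPM under vehicle and 0.811, 0.243 and 0.415 CPM under AA132 (log2 fold change -2.25 ± 0.31, adjusted p = 4.28e-05, edgeR), and CYP1B1 at 6.62, 7.79 and 9.12 CPM and 2.30, 2.29 and 3.45 CPM (log2 fold change -1.56 ± 0.23, adjusted p = 0.000108). TIPARP, an ADP-ribosyltransferase that represses AHR, was at 32.9, 45.3 and 44.2 CPM and 20.7, 21.03 and 22.2 CPM, 1.92-fold lower (adjusted p = 0.000166, edgeR). The libraries did not overlap for any of these. AHRR, the AHR repressor, was at 4.52, 4.70 and 4.96 CPM and 2.27, 4.02 and 3.61 CPM and was not called (-0.52, adjusted p = 0.195). The 3 calls were made in every fit that left out 1 library. The fall was not particular to AA132 at 10 µM. Against the vehicle mean, the list medians per library were -1.035, -1.247 and -0.958 at 10 µM and -1.111, -1.073 and -1.222 at 6 µM. They were -1.022, -0.894 and -0.891 under AA147, and -0.631, -0.446 and -0.629 at 0.3 µM AA132.

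The immediate early genes lay mostly below vehicle, and each other remaining list held at most 1 call with all libraries. Of 10 immediate early genes, which respond to growth signals within minutes, 2 were called higher and 2 lower. Only 2 of the 10 had a log2 fold change above 0, and the median was -0.44. The list medians were -0.33, -0.28 and -0.31 in the AA132 libraries. Without AA132 library 1 or 2 or vehicle library 1 or 2, 3 were called lower. In the fits without AA132 library 1 or 3 or vehicle library 2 or 3, 1 was called higher. IER3 was at 41.1, 28.7 and 31.6 CPM under vehicle and 15.3, 18.9 and 16.7 CPM under AA132 (log2 fold change -0.996 ± 0.16, adjusted p = 0.000321, edgeR) and EGR1, a zinc finger factor, at 19.6, 24.6 and 23.7 CPM and 12.1, 13.9 and 14.9 CPM (-0.73, adjusted p = 0.00288). JUN, a subunit of AP-1, rose by 0.41, and DUSP1, a phosphatase of MAP kinases, by 0.30; the latter call was lost without AA132 library 1 or 3 or vehicle library 2 or 3 (adjusted p up to 0.143, edgeR). FOS had -0.66 (adjusted p = 0.114). Of 14 genes of sterol synthesis, HMGCS1, an early enzyme of the pathway, was called, with 248, 333 and 327 CPM under vehicle and 506, 393 and 389.9 CPM under AA132 (0.51). It was highest in AA132 library 1, as were IDI1 (327, 191 and 169 CPM) and INSIG1 (115, 79.4 and 78.5 CPM), and without that library its adjusted p was 0.0591 (edgeR). Without AA132 library 1 or vehicle library 1 or 2, 2 members of the sterol list were called, and without AA132 library 1 the list median of 0.15 was 0.08. None of 26 proteasome subunits was called, and their median was -0.01. Of 5 tested genes of the metal response, SLC30A1, a zinc exporter, rose by 0.58, while MT1X and MT2A, metallothioneins, had 0.52 and 0.30 without a call. Without vehicle library 1, 3 of the 5 were called and the list median of 0.31 was 0.47.

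Of the markers of the line, the neuronal filament genes NEFL, NEFM and INA and vimentin (VIM) were present in all 6 libraries, with NEFL between 60.8 and 73.1 CPM, while PAX2, a kidney factor, lay between 0.624 and 1.27 CPM. NEFM was the single call among the 5 (2 without AA132 library 1) and rose by 0.45, lost without AA132 library 3 (adjusted p = 0.082, edgeR). Of 8 markers of other cell types 3 passed the filter on low counts. The leukocyte genes PTPRC and CD3E were at 0 in all 6 libraries, where 3 counts would be at most 0.093 CPM. The 8 markers summed to 40.8 to 50.7 CPM in the vehicle libraries and to 25.2 to 36.9 CPM in the AA132 libraries, nearly all of it COL1A1; their part in the other results was not tested. COL1A1, a collagen of fibroblasts, was at 49.9, 39.98 and 43.1 CPM under vehicle and 24.6, 36.3 and 32.6 CPM under AA132 and fell by 0.51 on the log2 scale, a call lost without AA132 library 1 (adjusted p = 0.122, edgeR).

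The genes with the largest rise outside these lists had low levels. They were BEST1, a chloride channel, CLCF1, a cytokine of the interleukin 6 family, the long noncoding RNA LINC00624, CALCB, a calcitonin gene-related peptide, RFPL4A, ACTL8 and C14orf39. BEST1 was at 0.194, 0.488 and 0.451 CPM under vehicle and 1.31, 1.59 and 1.72 CPM under AA132 (log2 fold change 2.01 ± 0.28, adjusted p = 4.28e-05, edgeR). CALCB was at 2.38, 1.22 and 1.43 CPM and 2.85, 4.75 and 5.14 CPM (1.33, adjusted p = 0.000318), again lowest in AA132 library 1. CLCF1 was at 0.360, 0.271 and 0.186 CPM and 0.968, 1.16 and 1.05 CPM, and its call was lost without vehicle library 3 (adjusted p = 0.0543, edgeR). RFPL4A kept its call in every fit without 1 library (adjusted p up to 0.0411). LINC00624 was no longer called without AA132 library 2 or 3 or vehicle library 1 or 2 (up to 0.0836), ACTL8 without library 2 or 3 of either condition (up to 0.182), and C14orf39 in 5 of the 6 such fits, all but the one without AA132 library 2 (up to 0.169).

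The largest falls after CYP1A1 and CYP1B1 were those of KCNK2, a potassium channel, VWF, a clotting protein of endothelium, LOC105377986, LOC105379695, the long noncoding RNAs FOXCUT and PRKG1-AS1, IER3 and VIPR1, a receptor for vasoactive intestinal peptide. LOC105379695 was at 21.6, 17.3 and 14.9 CPM under vehicle and 8.86, 7.32 and 8.43 CPM under AA132 (log2 fold change -1.13 ± 0.17, adjusted p = 9.52e-05, edgeR), and LOC105377986 at 2.72, 4.99 and 4.85 CPM and 1.88, 2.21 and 1.63 CPM (-1.13). VIPR1 was at 6.71, 5.78 and 6.52 CPM and 2.62, 3.19 and 4.08 CPM (-0.95, adjusted p = 0.00201), and FOXCUT at 4.35, 4.15 and 3.53 CPM and 1.86, 2.29 and 1.72 CPM (-1.03). All of these held in every fit without 1 library. KCNK2 was no longer called in 5 of the 6 such fits, all but the one without vehicle library 2 (adjusted p up to 0.151, edgeR), VWF without library 2 or 3 of either condition (up to 0.159) and PRKG1-AS1 without AA132 library 1 or 3 or vehicle library 2 (up to 0.135). PRKG1-AS1 (chr10:52230398-52314507, minus strand) overlaps the start of DKK1 (chr10:52314281-52318042, plus strand), a secreted WNT inhibitor that rose by 0.96. Use of strand in the counting is not given in the sources used here, so reads of these genes may not be told apart.

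No gene passed the test between 10 µM and the neighbouring doses of AA132. Against 6 µM edgeR called 0 genes and DESeq2 0, and 1223 had an unadjusted p under 0.05 in edgeR. Against 15 µM edgeR called 0 and DESeq2 3, and 1064 had such a p. HMOX1 ran from 66.4 to 76.3 CPM at 6 µM, from 70.7 to 126 CPM at 10 µM and from 153 to 159 CPM at 15 µM. The difference of 10 µM from 6 µM was 0.57 on the log2 scale, with a 95% interval from -0.05 to 1.20, and that of 15 µM from 10 µM was 0.57, with one from -0.05 to 1.19. HSPA5 ran from 2333 to 2406 CPM at 6 µM and from 2706 to 2923 CPM at 15 µM, both ranges meeting that at 10 µM; its differences were 0.05 (from -0.27 to 0.37) and 0.19 (from -0.13 to 0.51). DDIT3 ran from 14.3 to 16.8 CPM at 6 µM and from 20.01 to 21.4 CPM at 15 µM. Its difference of 10 µM from 6 µM was 0.37, with an interval from 0.02 to 0.72 (adjusted p = 0.718, edgeR). SLC7A11 ran from 13.3 to 15.4 CPM at 6 µM and from 28.5 to 30.7 CPM at 15 µM, on either side of the 10 µM libraries, with differences of 0.50 (from -0.06 to 1.06) and 0.57 (from 0.02 to 1.12). These comparisons share the 10 µM libraries.

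**Figure D5:**
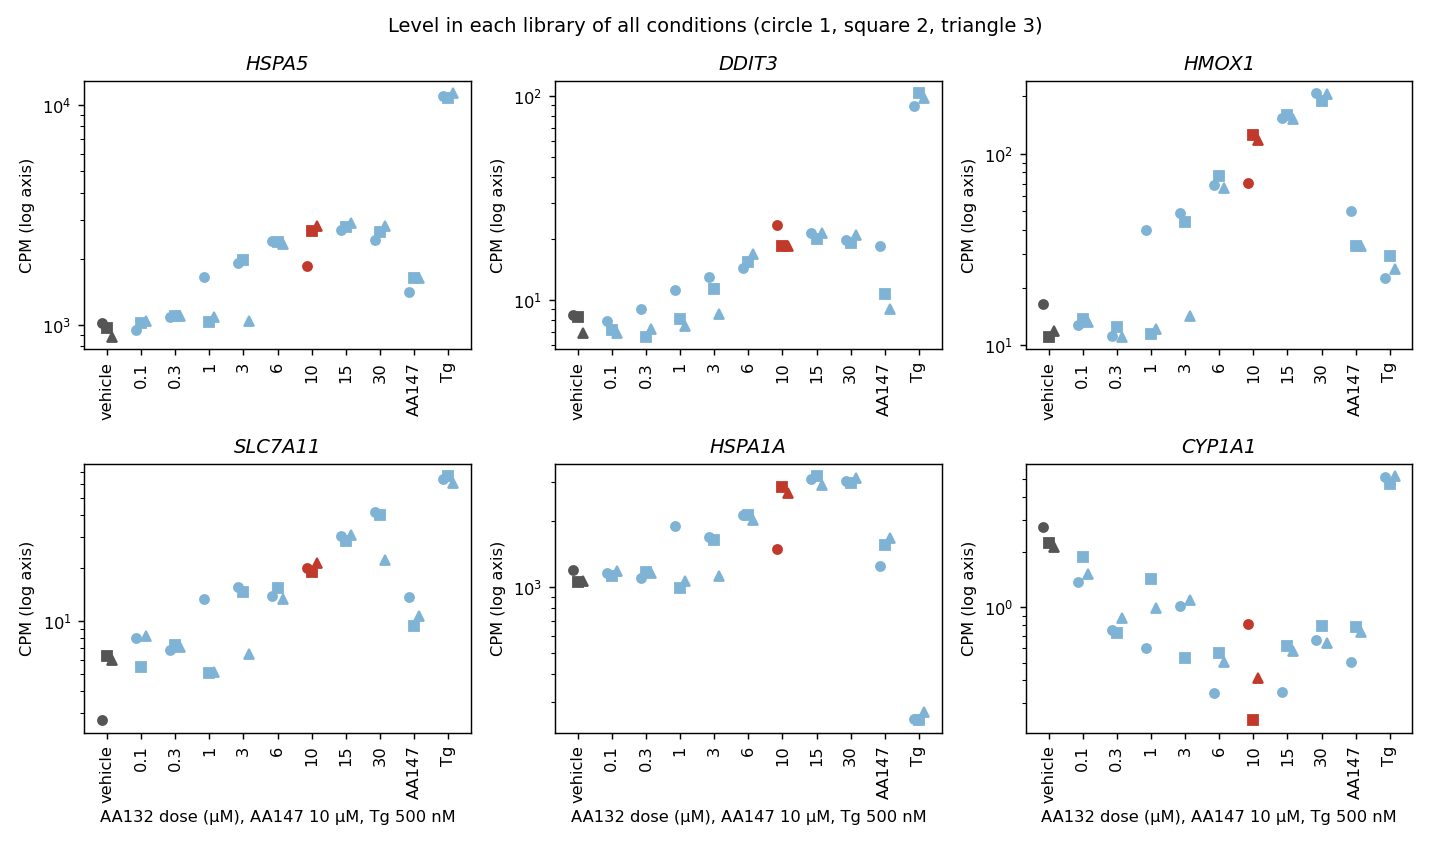
Panels show the CPM of 6 genes, on log axes, in each of the 33 libraries, by condition on the x axis (vehicle, AA132 doses in µM, AA147 at 10 µM and Tg at 500 nM), with vehicle in grey, AA132 10 µM in red and circles, squares and triangles for libraries 1, 2 and 3. HMOX1 and HSPA1A lie higher at AA132 10 µM than under Tg, and HSPA5, DDIT3, SLC7A11 and CYP1A1 lie lower; library 1 at 1 µM and library 3 at 3 µM lie apart from their conditions for HSPA5 and HMOX1.

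AA147 was used at the same dose and time as AA132, and 12 genes differed between the 2 compounds, 0.0674% of genes tested, 10 of them higher under AA132. HSPA6 was at 1.73 ± 0.36 CPM (SD, n = 3) under AA147, and at 5.38 ± 2.57 CPM under AA132 (log2 difference 1.64, 95% interval 1.13 to 2.15, adjusted p = 0.00271, edgeR). HSP90B1 was at 1556 ± 49.99 CPM under AA147 and 2208 ± 84 CPM under AA132 (SD, n = 3 libraries each; log2 difference 0.51, adjusted p = 0.0167, edgeR). DNAJB9 and ASNS differed by 0.47 and 0.37, and TAC1, a tachykinin precursor, by 0.92, with 3.11 ± 0.44 CPM under AA147 and 5.88 ± 0.36 CPM under AA132. The others were STAC, an adaptor of calcium channels (0.57), ANKRD1, a target of YAP (0.52), CDKN1A, the cell cycle inhibitor p21 (0.42), and TMED2, a cargo receptor of early secretory vesicles (0.32). TVP23C-CDRT4, a read-through of neighbouring genes whose reads can belong to either, differed by 0.60. The 2 lower genes were CADPS2, a regulator of vesicle release (-0.41), and PIK3C2B, a lipid kinase (-0.44). In none of the 12 did the libraries of the compounds overlap, which adds no support, since the genes were called on the same values. The share of all genes tested without overlap was not counted for this pair. Genes of this comparison beyond the lists and the 3 largest differences each way are named after their values were seen.

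The 3 marker genes did not pass the test between the compounds, yet their intervals excluded 0. The log2 difference of AA132 minus AA147 was 1.43 for HMOX1 (95% interval 0.79 to 2.08, adjusted p = 0.0662, edgeR), 0.66 for DDIT3 (0.31 to 1.01, adjusted p = 0.143) and 0.66 for HSPA5 (0.33 to 0.98, adjusted p = 0.106). These intervals are for single genes and are not adjusted over genes. The libraries of the compounds overlapped for DDIT3. It was at 18.325, 10.676 and 8.998 CPM under AA147 and at 23.429, 18.387 and 18.32 CPM under AA132. AA147 library 1 thus lay level with AA132 libraries 2 and 3. For HMOX1 and HSPA5 the libraries of the compounds did not overlap. CYP1A1 differed by -0.44 with an interval from -1.16 to 0.29. The median difference was 0.37 over the 12 ER chaperones, with 1 called (0 to 5 with 1 library left out), 0.13 over the NRF2 targets, with 0 called (0 to 3), and 0.01 over all genes tested. The count of 12 hangs on single libraries: it was 89 without AA132 library 1, 0 without AA132 library 2, 1 without AA132 library 3, and 25, 3 and 1 without AA147 library 1, 2 and 3. It was 33 without AA132 1 µM library 1 and AA132 3 µM library 3, the pair outside the comparison that stood apart.

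Against Tg, AA132 gave a different balance of the lists. Of all genes tested, 2585 (14.5%) were lower under AA132 than under Tg and 2564 (14.4%) higher. All 12 ER chaperones were lower, with a median log2 difference of -1.26, as were 8 of 9 ISR factors (-1.60), all 10 amino acid transporters (-1.33) and 9 of 11 stress effectors (-1.98). HSPA5 was lower by 2.17 on the log2 scale (difference -2.17 ± 0.16, SE; adjusted p = 1.58e-12, edgeR), and DDIT3 had a difference of -2.27. The opposite held for all 16 heat shock genes, which were higher under AA132 with a median difference of 0.81, and for 12 of 17 NRF2 targets (median 0.30, 1 lower). Against the vehicle mean, the heat shock medians per library were -0.61, -0.61 and -0.53 under Tg and 0.08, 0.25 and 0.29 under AA132. Most of that list's difference thus lay in a fall under Tg. The NRF2 targets higher than under Tg included PGD, TALDO1 and TKT (0.28, 0.28 and 0.30), which were not called against vehicle. HSPA1A differed by 3.20 ± 0.19 (SE; adjusted p = 5.63e-15) and HMOX1 by 2.04 ± 0.32 (SE; adjusted p = 6.48e-06, edgeR). Under Tg HSPA1A ran from 247 to 269 CPM, below every vehicle library. CYP1A1 ran from 4.67 to 5.15 CPM under Tg, above every vehicle library, and differed by -3.32. These lists were chosen with results of these libraries known, and their counts are a description.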

How the data were processed

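RNA was extracted and libraries were prepared and sequenced on a DNBSEQ platform by a service provider, per the labels' protocols. The authors deposited 1 table of expected counts per gene for 33 libraries, not scaled between libraries. The build is GRCh38.p7, per the submitters' processing notes; aligner, counter, annotation and use of strand are not given in the sources used here. The value 0.009, which fills 43.5% of cells, was set to 0, and 98 entries sharing 45 names were summed, leaving 38021 genes; 28 entries named as dates were kept apart and not named. A further 3.22% of cells held fractions, and counts were rounded.

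The tool was edgeR 4.0.16 (R 4.3.3): a quasi-likelihood F-test per gene after TMM scaling and its low-count filter, which left 17793 genes, with all 11 conditions fitted together and no block. SE is the absolute log2 fold change over the square root of F. Intervals of 95% use that SE and t on 22 degrees of freedom. The comparisons were 5: AA132 10 µM against vehicle, AA132 6 µM, AA147 and Tg, and AA132 15 µM against 10 µM. Per-library list medians used log2(CPM + 0.5). Scripts were tested on simulated data. DESeq2 1.42.0, other scalings, no filter, a minimum fold, fits of 2 conditions, a block by column number and fits without each library were alternatives.

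The 19 lists held 220 genes, of which 213 were tested. The members, lists and tests were chosen with earlier results of these data known. Named genes are list members and, for the main comparison, the 15 largest rises and 10 largest falls, and in others up to 3 each way, among called genes whose libraries did not overlap and whose higher condition had a mean of 1 CPM or more. Other genes are said to be chosen later or are named from a motif search. No molecular identifiers are described, so depth limits cover counting error only.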

Additional observations from a re-analysis of the deposited data

How the results depend on the processing

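Of the 74 genes of the lists and of the largest changes that were called, 74 kept the call with DESeq2 and with DESeq2 size factors, 72 with the library total alone, with the block and without the filter on low counts, 73 without AA132 1 µM library 1 and AA132 3 µM library 3, and 64 without library 1 of vehicle and of AA132 10 µM. With 1 library left out, 59 to 68 kept it, and with the 2 conditions alone 8 did. No called one reversed. PSMB6, not called with all libraries, turned from -0.05 to 0.32 without library 1 of both conditions (adjusted p = 0.0158, edgeR). Of the 250 calls, 108 were made in all 6 fits without 1 library.

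The count of 250 genes against vehicle was 466 with DESeq2, 411 without the filter, 11 at a minimum absolute log2 fold change of 0.5, 8 with the 2 conditions alone and 1160 without both library 1s. It ran from 160 to 682 with 1 library left out: 160 without AA132 library 3 and 682 without vehicle library 1 (339 higher, 343 lower). The share of calls that were higher was 73.6%, 49.7% without vehicle library 1 and 55.5% without both. Numbers did not pair the libraries: the deviations of same-numbered libraries from their condition means correlated at -0.0991, -0.0598 and -0.0251. The fit with the column number as a replicate block, which called 252 genes, 235 of them among the 250, is therefore given only here. Against AA147 the count of 12 was 55 with DESeq2, 98 without the filter, 0 at the minimum fold, 0 with the 2 conditions alone, 33 without AA132 1 µM library 1 and AA132 3 µM library 3, and 0 to 89 with 1 library left out. Against Tg 5149 genes were called and 699 at the minimum fold. Against 6 µM 66 genes were called without the filter, and for 15 µM against 10 µM 69 without it and 3 with DESeq2. The cause of these shifts was not tested. The fit of vehicle and AA132 10 µM alone has fewer libraries and takes its spread from these 2 conditions, whose libraries deviated more than those of most conditions. The parts of the 2 in the drop to 8 calls were not separated. The common coefficient of variation between libraries was 9.09%. Genes near or below 1 CPM, such as CYP1A1 under AA132 and BEST1 under vehicle, also carry counting error.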

Other observations

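Of the called genes, 130 higher and 60 lower lay in none of the lists. The genes named here were chosen after their values were seen. CDKN1A (p21), a brake on the cell cycle, was at 72.5, 59.4 and 63.6 CPM under vehicle and 73.9, 99.2 and 94.4 CPM under AA132 (log2 fold change 0.45 ± 0.09, SE, adjusted p = 0.00191, edgeR). GADD45A, a growth arrest protein, rose by 0.61, AEN, a nuclease of apoptosis, by 0.46, and EDA2R, a receptor of the TNF family, by 1.02. EDA2R was highest in AA132 library 1 (16.1, 10.99 and 10.2 CPM), whereas CDKN1A and GADD45A were lowest there. All 4 were called in every fit without 1 library.

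Single genes with roles in autophagy or the ER are given next, with no count of their groups. SQSTM1 (p62), the autophagy receptor that also binds KEAP1, was at 229, 189 and 196 CPM under vehicle and 257, 296 and 285 CPM under AA132 (log2 fold change 0.45 ± 0.08, SE, adjusted p = 0.00101, edgeR). GABARAPL1, an ATG8 protein of the autophagosome membrane, rose by 0.56, with 38.2, 37.8 and 35.8 CPM against 24.02, 25.9 and 26.2 CPM. ATP2A2 (SERCA2), the calcium pump that Tg blocks, rose by 0.29, a call lost without AA132 library 2 or 3 or vehicle library 1 (adjusted p up to 0.145, edgeR). SELK (SELENOK), an ER membrane selenoprotein, rose by 0.59, and CRELD1, a relative of CRELD2, by 0.74. Among genes that fell were DLX2, a homeobox factor (-0.59), DACT1, a regulator of WNT signalling (-0.56), and ETV1, an ETS factor (-0.61). DLX2 was at 27.05, 24.1 and 25.4 CPM under vehicle and 16.4, 18.5 and 15.96 CPM under AA132, and DACT1 at 35.4, 35.7 and 36.7 CPM and 22.3, 24.9 and 25.9 CPM. ETV1 was not called without AA132 library 1 or 3 or vehicle library 2 (adjusted p up to 0.0581, edgeR).

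Other single genes follow, again without a count of any group. PCK2, the mitochondrial enzyme that makes phosphoenolpyruvate, was at 30.6, 24.9 and 23.7 CPM under vehicle and 34.4, 43.8 and 43.7 CPM under AA132 (log2 fold change 0.62 ± 0.10, SE, adjusted p = 0.000158, edgeR). EIF5, a translation initiation factor, rose by 0.54 and XPOT, the exporter of tRNA from the nucleus, by 0.32, both in every fit without 1 library. GPT2, alanine transaminase, rose by 0.34 with overlapping libraries, a call lost without library 2 or 3 of either condition (adjusted p up to 0.14, edgeR). DKK1 kept its call in all 6 fits without 1 library (adjusted p up to 0.0108, edgeR). BMF, a death-promoting BH3 gene, fell, at 5.71, 5.16 and 4.75 CPM under vehicle and 3.03, 2.56 and 2.81 CPM under AA132, while BBC3, of the same class, rose. The call of BMF was lost without AA132 library 2 or 3 (adjusted p up to 0.109, edgeR).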
